A study of Homo sapiens with 9 samples.

Results

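The Mediator guides were the 130 sgRNAs whose target gene name begins with MED and a digit, 10 for each of 13 genes, out of 11170 sgRNAs against 1117 genes. They were counted by sequencing in U251, an established human glioma cell line that carried a pooled sgRNA library and spent 72 hours in temozolomide, a drug that alkylates DNA. Libraries were sequenced at 0, 200 and 1500 µM, with 3 libraries per dose, numbered 1 to 3. The dose unit is that of the sample titles; the treatment protocol writes nM beside these figures, and the unit serves here only to name the groups. Which nuclease cut the genes, how long after infection the drug was added and whether the numbers mark separate cultures is not stated in the labels. A p-value here therefore sets a difference against the scatter of these 3 libraries per dose, and that scatter may be technical. No plasmid pool and no library from before the exposure was analysed here, and a guide that was scarce in the pool therefore cannot be told apart from one whose cells were lost. Guides are named in the table by gene and number, and their sequences were not used here.

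Mediator is a large complex that links DNA-bound transcription factors to RNA polymerase II and is used at most genes that this polymerase transcribes. Its head and middle modules contact the polymerase, its tail module contacts activators, and a separable kinase module built on CDK8 and cyclin C regulates the rest. In budding yeast the counterparts of several head and middle subunits are required for growth, whereas those of tail and kinase subunits are not. The table held 5 head genes (MED6, MED8, MED11, MED17 and MED20), 5 middle genes (MED1, MED7, MED10, MED21 and MED31), 2 tail genes (MED23 and MED24) and MED12 of the kinase module. Orthologs of essential yeast subunits made up 7 of the 13, namely MED6, MED7, MED8, MED10, MED11, MED17 and MED21.

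Library totals lay between 1852340 and 2790563 counts, or 166 to 250 counts per guide on average, and a count of 0 allows a level of up to 1.08 to 1.62 CPM, which are counts scaled to a common library total. These limits, and the Clopper-Pearson intervals of shares, cover counting error only. One guide outside Mediator, UBE2A.7, held 18.6% of the counts of replicate 2 at 1500 µM and 0.155% to 6.07% of the other libraries, which lowers the CPM of every other guide where it is high. Replicate numbers separated the libraries more than dose did. Across the 102 tested Mediator guides, levels as log2(CPM + 1) correlated at 0.74 to 0.89 between doses under 1 replicate number, and at 0.32 to 0.50 between libraries of the same dose. For all 10337 tested guides these ranges were 0.79 to 0.89 and 0.39 to 0.49. Guides are not independent replicates, so the correlations carry no p.

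Mediator guides were scarce at every dose, including without drug. They were 1.16% of the guides in the table and held 0.656% ± 0.107 of the counts at 0 µM, 0.659% ± 0.0844 at 200 µM and 0.615% ± 0.0720 at 1500 µM (SD, n = 3 each). In replicates 1, 2 and 3 without drug the share was 0.602%, 0.779% and 0.588%. The 200 µM libraries had 0.642%, 0.750% and 0.584%, and the 1500 µM libraries had 0.632%, 0.677% and 0.536%. The exact Clopper-Pearson 95% intervals were narrow, for example 0.768% to 0.790% in the highest library and 0.526% to 0.546% in the lowest. The ranges of the doses overlapped in part, since replicate 3 at 1500 µM was the lowest library and replicate 2 at 0 and at 200 µM lay above every 1500 µM library. Replicate 2 was the highest at each dose, and within each number the share was lower at 1500 than at 200 µM. With UBE2A.7 taken out of the totals the mean share was 0.660% at 0 µM, 0.666% at 200 µM and 0.689% at 1500 µM. The lower mean share at 1500 µM thus did not remain without that guide.

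The median Mediator guide had 9.98 to 21.3 CPM in the 9 libraries, against 35.6 to 50.2 CPM for the median guide of the whole table. Between 23.1% and 31.5% of Mediator guides had no count in a given library, against 10.0% to 15.2% of all guides. Over the 9 libraries, 58 Mediator guides were never at 0, 68 were at 0 in 1 to 8 libraries and 4 of the 130 were at 0 in all of them. Of all 11170 guides, 148 were at 0 in all libraries. Those 4 were MED7.10, MED11.9, MED17.2 and MED31.10. The tests of dose took the 102 Mediator guides that reached 10 counts in 3 or more libraries, and left out the other 28. Of these 28, 10 stayed under 10 counts in every library. Such guides were 7.69% of the Mediator guides and 2.62% of all guides.

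Levels of a gene are given as the sum over its 10 guides. Averaged over the 9 libraries, 10 of the 13 genes lay below the median gene of the table, which had 853 CPM, and all 10 were among the 279 least abundant of the 1117 genes. All 5 head genes and all 5 middle genes were among them, and all 7 orthologs of essential yeast subunits. The 2 tail genes and MED12 lay above the median gene on this mean. In single libraries MED12 was above that library's median gene in 8 of 9, MED24 in 6 of 9 and MED23 in 5 of 9, and 0 members were above it in all 9. The median over the 7 orthologs was 286 CPM, and over the other 6 members it was 707 CPM. Of those 6, however, 3 (MED1, MED20 and MED31) were also among the 279 least abundant, and the others were the 2 tail genes and MED12. These counts describe the levels and carry no test.

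MED17, the scaffold of the head module, and MED11, a small head subunit, were the scarcest. Summed MED17 guides had 31.8, 161 and 142 CPM in replicates 1, 2 and 3 at 0 µM, 80.2, 149 and 118 CPM at 200 µM, and 51.2, 104 and 145 CPM at 1500 µM. Replicate 1 was the lowest of the 3 at each dose. On the mean over the 9 libraries MED17 ranked 30 of 1117 genes from the bottom, and it held between rank 12 and rank 63 in single libraries. Of its 10 guides, 6 entered the tests and 7 lay below the library's median guide in all 9 libraries, as did 20.4% of all guides.

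MED11 guides had 5.40, 56.7 and 356 CPM in replicates 1, 2 and 3 at 0 µM, 24.2, 64.2 and 249 CPM at 200 µM, and 27.6, 67.2 and 143 CPM at 1500 µM. The order of the numbers was the same at each dose, with replicate 3 the highest, and the lowest value rested on 10 counts. MED11 ranked 31 of 1117 on the mean, and between 3 and 132 in single libraries. Its median guide averaged 2.85 CPM, and 7 of its 10 guides lay below the library's median guide everywhere, against 20.4% of all guides. The means of MED17 and MED11, 109 and 110 CPM, do not set an order, since MED11 was the higher in only 2 of 9 libraries.

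MED10 and MED21, essential middle subunits in yeast, averaged 232 and 366 CPM over the 9 libraries, with ranges of 111 to 366 and 155 to 701 CPM. MED7, a middle subunit that pairs with MED21, averaged 286 CPM with a narrower range of 178 to 339 CPM. MED31, another middle subunit, averaged 347 CPM (227 to 459 CPM), though only 5 of its 10 guides entered the tests and MED31.1, MED31.2, MED31.8, MED31.9 and MED31.10 averaged at most 1.14 CPM each. MED1, the middle subunit that binds nuclear receptors, averaged 482 CPM (278 to 760 CPM). In the head module MED6 averaged 324 CPM (124 to 522 CPM), MED20 515 CPM (349 to 863 CPM) and MED8 586 CPM (397 to 811 CPM). From MED10 up to MED8 each gene exceeded the next lower one in 3 to 6 of the 9 libraries, so their order is not settled. The most abundant MED8 guide, MED8.7, averaged 234 CPM and held 40.0% of the gene's mean level. Ranked without the most abundant guide of each gene, MED8 was 223 of 1117, near its rank of 256 with all guides.

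The next step in the order was clearer, since MED23 exceeded MED8 in 9 of 9 libraries. MED23, a tail subunit that receives signals from activators such as ELK1, had 1008, 789 and 714 CPM in replicates 1, 2 and 3 at 0 µM, 1198, 802 and 783 CPM at 200 µM, and 1139, 820 and 844 CPM at 1500 µM. Replicate 1 was the highest at each dose. Of its 10 guides, 9 averaged 35.7 to 261 CPM, and MED23.1 alone was nearly absent, with 2 counts in 1 library.

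MED24, its partner in the tail, had 1049, 1153 and 789 CPM at 0 µM, 1022, 1035 and 786 CPM at 200 µM, and 925, 1034 and 786 CPM at 1500 µM. All 10 MED24 guides entered the tests, and none lay below the library's median guide in all 9 libraries. MED24 exceeded MED23 in 6 of 9 libraries.

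MED12, which activates CDK8 within the kinase module, was the most abundant member at 1223 CPM on average, rank 949 of 1117. Its guides had 683, 1742 and 1085 CPM in replicates 1, 2 and 3 at 0 µM, 1090, 1809 and 1113 CPM at 200 µM, and 960, 1653 and 872 CPM at 1500 µM. Replicate 2 stood apart at each dose through 1 guide. MED12.9 had 148, 1270 and 214 CPM at 0 µM, 237, 1303 and 214 CPM at 200 µM, and 168, 1192 and 172 CPM at 1500 µM. In replicate 2 it made up 72.0% to 72.9% of the MED12 counts, against 17.5% to 21.7% in the other replicates. Ranked without the most abundant guide of each gene, MED12 was 674 of 1117, MED24 was 720 and MED23 was 606. The scarcest MED12 guide, MED12.10, averaged 2.95 CPM.

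After MED12.9, the most abundant Mediator guides were MED23.8 with a mean of 261 CPM, MED24.3 with 249 CPM, MED8.7 with 234 CPM and MED24.10 with 197 CPM. MED23.8, MED24.3 and MED8.7 were highest in replicate 1 at every dose, and MED24.10 in replicate 2. The most abundant guide of the scarcer genes was lower, with means of 36.4 CPM for MED17.1, 45.0 CPM for MED11.5, 72.6 CPM for MED10.1 and 93.1 CPM for MED6.7. It averaged 111 CPM for MED7.9 and 164 CPM for MED20.6. A guide could also be present under 1 number and missing under another. MED20.3 had 1042, 128 and 229 counts in replicate 1 at 0, 200 and 1500 µM and no count in replicates 2 and 3, and MED10.5 had 142, 173 and 106 counts in replicate 2 and none elsewhere. In all, 10 Mediator guides (7.69%) had at least 10 counts in the 3 libraries of 1 number and 0 in the 3 libraries of another, against 4.16% of all guides.

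The other kinase module genes in the table were CDK8, the kinase, and CCNC, which encodes cyclin C. CDK8 averaged 852 CPM (469 to 1683 CPM) and CCNC 594 CPM (305 to 1092 CPM), and both were highest in replicate 1 at each dose, in contrast to MED12. Single guides weighed on these levels too, since CDK8.3 held 41.4% of the CDK8 mean and CCNC.1 55.7% of the CCNC mean. Ranked without the most abundant guide of each gene, CDK8 went from 555 to 387 and CCNC from 265 to 151. A further list, for RNA polymerase II initiation, took TAF genes by name alone, whatever their complex. Its 8 measured genes were MNAT1, DR1, POLR2A, TAF5L, TAF6L, TAF9, TAF10 and TAF12. The median was 366 CPM over the 13 Mediator genes and 416 CPM over these 8, of which 7 lay below the median gene and 5 among the 279 least abundant. The 14 genes of the 20S proteasome core, which all cells need, had a median of 129 CPM, with 13 of 14 among those 279. The tests took 78.5% of the Mediator guides, 70 of the 140 proteasome guides and 92.5% of all guides.

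The comparison of 1500 with 0 µM asked whether cells carrying Mediator guides changed in share at the highest dose. In edgeR's quasi-likelihood test on summed counts, 0 of 13 Mediator genes passed an adjusted p of 0.05, where 0% of the 1117 genes passed, and 0 of 102 Mediator guides passed, where 0% of the 10337 guides did. At an unadjusted p under 0.05 the fit held 0 Mediator genes against 0.269% of all genes, and 0 Mediator guides against 0.203% of all guides. DESeq2 gave 0 Mediator genes and 0 Mediator guides by either measure. The median log2 fold change over the 13 genes was -0.02, against -0.03 over all genes, with 6 higher and 7 lower.

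MED7 had the highest log2 fold change at 1500 against 0 µM, 0.54 ± 0.35 (SE, edgeR adjusted p = 0.9996). Its summed guides had 321, 274 and 339 CPM in replicates 1, 2 and 3 at 1500 µM, against 178, 240 and 273 CPM at 0 µM. Each number was higher at 1500 than at 0 µM, and the groups did not overlap, by a narrow margin. After scaling by TMM (edgeR's factors that correct for a few dominant guides), as log2(CPM + 1), the differences within replicates 1, 2 and 3 were 0.85, 0.42 and 0.37. Of 8 tested MED7 guides, 7 were higher. MED7 was also the only member in which dose accounted for more of the variance of the 9 levels than replicate number, 78.9% against 5.18%. That was the case in 7.69% of the Mediator genes and in 6.45% of all genes, so the count of members is near the background.

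MED23 had a log2 fold change of 0.25 ± 0.31 (SE) at 1500 against 0 µM. It was higher within each number, by 0.18, 0.29 and 0.30, and had 0.26 ± 0.16 with replicate number as a block. In refits without the block it had 0.09 without replicate 1 at 1500 µM. It had 0.12 without replicate 3 and 0.45 without replicate 1 at 0 µM. Refits that left out 1 library, here and below, had no block, so replicate numbers were then unequal between the doses. MED7 and MED23 were thus 2 of 13 Mediator genes higher in all 3 pairs, against 13.9% of all genes, and 0 were lower in all 3 pairs, against 10.6% of all genes. MED6 had 0.21 ± 0.59, and this turned to -0.19 without replicate 3 at 0 µM and to -0.03 without replicate 2 at 1500 µM. With all libraries of the 2 doses and no block, MED23 and MED6 had an adjusted p of 0.9996 in edgeR.

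At the other end, MED11 had a log2 fold change of -0.69 (95% interval -3.39 to 2.01), with within-number differences of 2.17, 0.47 and -1.25. Without replicate 3 at 0 µM the value was 1.41, and with replicate number as a block it was 0.30 ± 0.62. MED20, another head subunit, had -0.44 ± 0.41 and MED8 had -0.17 ± 0.37. The MED20 values within replicates 1, 2 and 3 were -1.19, -0.21 and 0.38, and MED20.3 held 65.1% of the MED20 counts in replicate 1 at 0 µM. The fitted MED20 value was -0.091 without that library and -0.75 without replicate 3 at 0 µM. MED8 had 0.010 without replicate 1 at 0 µM and 0.034 without replicate 3 at 1500 µM. The edgeR adjusted p was 0.9996 for these 3 genes as well.

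The precision differed over the members. The narrowest estimate at 1500 against 0 µM was that of MED23, whose 95% interval ran from -0.46 to 0.96 on the log2 scale, and that of MED24 ran from -0.74 to 0.71. For MED17 it ran from -1.66 to 1.58. With the replicate number as a block the SE lay between 0.16 and 0.62, and 0 of 13 genes passed (lowest adjusted p 0.759, for MED7), where 0.0895% of all genes did.

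Among single guides at 1500 against 0 µM, the lowest p-values belonged to MED11.3 and MED31.4 among higher guides and to MED8.2 and MED24.6 among lower guides, and each had an edgeR adjusted p that rounded to 1.00. MED11.3 had 22, 0 and 2 counts at 1500 µM and none at 0 µM. It reached 10 counts only in treated libraries, so its place here is a description. MED24.6 had 95.3, 99.0 and 112 CPM at 1500 µM, against 148, 145 and 222 CPM at 0 µM. All its values at 1500 µM were the lower ones, and the log2 fold change was -0.77 ± 0.58 (SE). MED31.4 had 38.0, 98.7 and 62.5 CPM at 1500 µM, against 10.3, 71.9 and 11.3 CPM at 0 µM, and its log2 fold change was 1.05 ± 1.02. That value was 2.66 without replicate 2 at 0 µM, 0.64 without replicate 1 and 0.62 without replicate 3 at 0 µM, and 0.46 without replicate 2 at 1500 µM. MED8.2 had 34.4, 25.5 and 74.4 CPM at 1500 µM, against 24.8, 130 and 179 CPM at 0 µM, and -1.36 ± 0.83. Of the tested Mediator guides, 14 were higher and 7 were lower in all 3 pairs, which is 13.7% and 6.86% of them, against 16.6% and 8.85% of all guides.

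At 200 against 0 µM the picture was alike, and this comparison shares its untreated libraries with the one above. In edgeR 0 of 13 genes and 0 of 102 guides passed, where 0% of all genes and 0% of all guides did. The median log2 fold change over the 13 genes was -0.07, against -0.03 over all genes, with 6 higher and 7 lower. MED7 had 0.41 ± 0.36 (SE), with 314, 334 and 302 CPM at 200 µM, against 178, 240 and 273 CPM at 0 µM. The groups did not overlap, and the within-number differences were 0.71, 0.44 and 0.18. MED12 had 0.15 ± 0.40, or 0.20 ± 0.14 with the block, and was higher in 3 of 3 pairs, by 0.57, 0.01 and 0.07. In refits without the block MED12 had -0.09 without replicate 1 at 0 µM and -0.13 without replicate 2 at 200 µM. MED20 had -0.46 ± 0.41, which was -0.11 without replicate 1 and -0.77 without replicate 3 at 0 µM. MED11 had -0.30 ± 1.29, which became 1.81 without replicate 3 at 0 µM, 0.19 without replicate 1 at 200 µM, 0.033 without the most abundant guide of each gene, and 0.32 with the block. These 4 genes had an edgeR adjusted p of 0.998 with all libraries and no block. MED8 was the only member lower in all 3 pairs, against 12.6% of all genes, and the 2 members higher in all 3 pairs compare with 16.8% of all genes. Of the tested Mediator guides 12 were higher and 10 were lower in all 3 pairs, against 14.2% and 9.65% of all guides.

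The guide with the lowest p at 200 against 0 µM was MED11.3, with 16, 3 and 33 counts at 200 µM and none at 0 µM. Its mean of 7.55 ± 5.94 CPM (SD, n = 3) was at least 4.99-fold higher than the mean level that 3 counts per library would give. MED11.3 reached 10 counts only in treated libraries, so it entered the test only through the doses where it was high, and its counts are given as a description. It was also the 1 Mediator guide of 102 with an unadjusted p under 0.05 in edgeR, a rule that 0.135% of all guides met. Because of how MED11.3 entered the test, no conclusion is drawn from that p. At 1500 µM MED11.3 had 22, 0 and 2 counts. MED7.4 had 60.9, 25.8 and 79.6 CPM at 200 µM, against 31.3, 8.23 and 14.0 CPM at 0 µM, with a log2 fold change of 1.39 ± 0.96 (SE), which was 2.21 without replicate 1 at 0 µM. Among lower guides, MED21.8 had 0, 0 and 14 counts at 200 µM, against 12, 14 and 174 at 0 µM, and replicate 3 held most of both. MED6.9 had 0 counts at 200 µM, against 0, 17 and 20 counts at 0 µM. At 1500 µM both were again present, with 44, 4 and 137 counts for MED21.8 and 20, 28 and 18 counts for MED6.9.

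At 1500 against 200 µM, 0 of 13 Mediator genes and 0 of 102 guides passed in edgeR, where 0% of all genes and 0% of all guides did. The median log2 fold change over the 13 genes was 0.08, against -0.01 over all genes, with 8 higher and 5 lower. MED6 had 0.33 ± 0.45 (SE), which ranged from 0.092 without replicate 2 to 0.64 without replicate 3 at 1500 µM. MED23 had 0.15 ± 0.30, or 0.17 ± 0.11 with the block. In refits without the block MED23 ranged from 9.1e-05 without replicate 1 at 1500 µM to 0.37 without replicate 1 at 200 µM. MED23 was the only member higher in all 3 pairs, against 12.7% of all genes, while 0 were lower in all 3 pairs, against 15.2%. MED11 had -0.39 ± 0.92, which became 0.96 without replicate 3 at 200 µM and 0.016 without replicate 1 at 1500 µM. MED10 had -0.28 ± 0.50, which became 0.018 without replicate 2 at 200 µM. With all libraries and no block, the edgeR adjusted p was 0.999 for these genes. With the replicate block and DESeq2, 2.55% of the genes with an adjusted p passed in this comparison, and 0 of the 6 Mediator genes among them did. Of the guides with an adjusted p, 0.873% passed in the same fit, and 0 of 30 Mediator guides did.

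The guide with the lowest p at 1500 against 200 µM was MED6.9, which had no count at 200 µM. Its 8.90 ± 1.95 CPM at 1500 µM (SD, n = 3) was at least 6.38-fold higher than the level that 3 counts per library would give. Of the libraries compared it reached 10 counts only at 1500 µM, where it was high, so its counts are given as a description. It was also the 1 Mediator guide with an unadjusted p under 0.05 in edgeR, against 0.203% of all guides. For the same reason no conclusion is drawn from that p. MED1.4 was higher, with a log2 fold change of 1.58 ± 0.87 (SE), and MED1.5 and MED10.7 were lower, with -2.60 ± 2.38 and -0.83 ± 0.82, and their edgeR adjusted p rounded to 1.00. MED1.5 had 22, 10 and 0 counts at 1500 µM, against 154, 18 and 0 at 200 µM, and its value was -0.074 without replicate 1 at 200 µM. MED10.7 had -0.46 without replicate 2 at 200 µM, -0.48 without replicate 3 and -1.51 without replicate 2 at 1500 µM. Of the tested Mediator guides 18 were higher and 4 were lower in all 3 pairs, or 17.6% and 3.92%, against 13.4% and 11.4% of all guides.

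Other fits of the same counts also gave 0 Mediator calls at an adjusted p of 0.05. Shares for DESeq2 are of the guides or genes to which it gave that p. DESeq2 called 0% of all guides in each comparison, and 0.0898%, 0% and 0.0897% of all genes at 1500 against 0 µM, 200 against 0 µM and 1500 against 200 µM. At an unadjusted p under 0.05 it held 0, 2 and 1 Mediator guides in that order of comparisons, where 0.624%, 0.411% and 0.336% of all guides passed. For genes it held 0 Mediator members, where 0.359%, 0.27% and 0.179% passed. The Mediator guides were MED21.8 and MED11.3 at 200 against 0 µM and MED6.9 at 1500 against 200 µM. The limit given above on how MED11.3 and MED6.9 entered the tests holds here too.

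With the replicate block, edgeR held 3, 2 and 2 Mediator guides at an unadjusted p under 0.05, where 2.61%, 2.23% and 1.95% of all guides passed. They were MED31.4, MED24.6 and MED20.3 at 1500 against 0 µM, MED20.3 and MED21.8 at 200 against 0 µM, and MED24.9 and MED21.8 at 1500 against 200 µM. MED20.3 had no count in replicates 2 and 3 at any dose, so its p rests on 1 pair of libraries and no conclusion is drawn from it. For genes the unadjusted count was 0 Mediator members, where 6.62%, 5.37% and 6.62% passed. DESeq2 with the block called 0.058%, 0.058% and 0.873% of all guides and 0.269%, 0.0895% and 2.55% of all genes by adjusted p. By unadjusted p it held 3, 2 and 10 Mediator guides, where 4.67%, 4.09% and 10.2% of all guides passed. For genes it held 1, 0 and 0 Mediator members, the 1 being MED7 at 1500 against 0 µM, where 6.62%, 5.46% and 12.4% passed.

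The related genes did not pass either. In edgeR 0 of CDK8 and CCNC and 0 of the 8 genes of the initiation list passed in each comparison, and 0 of these 10 had an unadjusted p under 0.05. The median of the 8 log2 fold change was -0.13 at 1500 against 0 µM, -0.04 at 200 against 0 µM and 0.02 at 1500 against 200 µM. Over the modules, the median at 1500 against 0 µM was -0.17 for the 5 head genes, 0.01 for the 5 middle genes and 0.12 for the 2 tail genes. The smallest SE of a single Mediator gene in that comparison was 0.31 without the block and 0.16 with it.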

How the data were processed

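For each sgRNA and each of 9 libraries, the authors deposited a raw count. Per the submitters' processing notes, cutadapt 1.18 and MAGeCK 0.5.8 were used, and hg19 was named. How reads were matched to guides is not stated there. All 13 member genes carried a current RefSeq symbol. Counts were used unchanged. Guides that reached 10 counts in 3 or more libraries (10337), and genes by their summed counts (1117), were tested with edgeR 4.0.16 (TMM, robust quasi-likelihood, the 6 libraries of a pair, no block) in R 4.3.3, adjusted by Benjamini-Hochberg over all guides or genes. An SE was taken as the size of the log2 fold change divided by the root of edgeR's F. DESeq2 1.42.0, a replicate block, other filters, library totals, all 9 libraries, and leaving out libraries or each gene's most abundant guide were alternatives. Scripts were tested on simulated data. The simulated counts for edgeR held no differences between replicate numbers, unlike these libraries, so they do not show how the fits perform here.

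Replicate numbers in the sample titles were checked for pairing. After subtracting each dose's mean, all 9 pairs of libraries that share a number correlated across guides (0.66 to 0.78), above the rule of 0.1. The numbers were therefore treated as pairs in the within-number differences and in the fits with the replicate block. The main edgeR fit had no block, so its SE, intervals and p-values ignore this pairing. At 1500 against 0 µM the SE of the member genes was 0.31 to 1.18 without the block and 0.16 to 0.62 with it. The labels do not say what a number marks.

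The members and lists were chosen with earlier results of these data known. Every member's level was given, as were fold changes of the 3 highest and 3 lowest genes at 1500 against 0 µM, the 2 highest and 2 lowest elsewhere, and 2 guides per direction of lowest p. Other guides named were chosen after their values were seen.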

Additional observations from a re-analysis of the deposited data

How the results depend on the processing

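No Mediator gene and no Mediator guide passed an adjusted p of 0.05 in any of the 3 comparisons under any alternative run, including edgeR or DESeq2 with the replicate block, where the count was also 0, so the block changed no call. DESeq2 with the block at 1500 against 200 µM gave an adjusted p to only 6 Mediator genes and 30 Mediator guides, so the others could not be called there. Plain library totals gave a median of all genes of -0.13 at 1500 against 0 µM (-0.03 with TMM) and -0.15 at 1500 against 200 µM (-0.01 with TMM), with Mediator medians of -0.12 and -0.05. The mean share of counts was 0.660%, 0.666% and 0.689% at 0, 200 and 1500 µM with UBE2A.7 out of the total. Leaving out each library in turn, the Mediator median log2 fold change ranged from -0.19 to 0.18 at 1500 against 0 µM, from -0.20 to 0.18 at 200 against 0 µM and from -0.077 to 0.18 at 1500 against 200 µM, taking either sign in each comparison. It was highest without replicate 2 at 0 µM in the first and second and lowest without replicate 2 at 1500 µM in the last. These refits had no block, so replicate numbers were unequal between the doses, and replicate 2 had the highest Mediator share at each dose. With all libraries and the block the median was 0.11, 0.04 and 0.07. How much of the movement came from the replicate numbers was not tested. Named genes whose direction turned when a library was left out were MED11 (ranges of -1.31 to 1.41, -1.63 to 1.81 and -1.02 to 0.96 in the same order of comparisons), MED8 (-0.56 to 0.034) and MED6 (-0.19 to 0.70) at 1500 against 0 µM, MED12 (-0.13 to 0.58) at 200 against 0 µM and MED10 (-0.65 to 0.018) at 1500 against 200 µM. MED11 also turned with the replicate block (0.30 at 1500 and 0.32 at 200 against 0 µM) and, at 200 against 0 µM, without the most abundant guide (0.033). Beyond these 15 values, the other 235 for named genes and guides kept their direction, all without passing. Among named genes, MED7 alone moved by less than 1.5 times when any 1 library was left out (0.41 to 0.64 at 1500 and 0.30 to 0.52 at 200 against 0 µM). Replicate number accounted for 5.18% of the variance of the MED7 levels, and for 28.8% (MED20) to 95.8% (MED1) in the other members. Refits without the block move less for such a gene, so they do not rank the genes by how firm their dose differences are. Of these alternatives, the added ones were all 9 libraries in 1 fit for named genes and the refits of named guides, chosen after seeing the data. Scarce members (MED11 and MED17) had the widest intervals.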
